A study of Arabidopsis thaliana with 6 samples.

Results

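Cytochrome P450 genes of Arabidopsis thaliana were followed across genotype and copper supply in RNA-seq of whole seedlings. Members were the gene entries named with the systematic pattern of the superfamily, that is CYP, a family number, a subfamily letter and a gene number, such as CYP82C4. Of 27052 gene entries, 217 carried such a name. CYP86A4, CYP86A7 and CYP77A6 were left aside by the rule, which left 214 members in 39 families and 59 subfamilies. The rule matched names and no measured value, but it was set with earlier results of these data known. It also named CYP82C4 and CYP79F1 for description. Matching to a RefSeq gene table (assembly TAIR10.1) gave 213 members a locus code whose name and position in the files went together. The remaining entry, named CYP81D1, lies on chromosome 3 (10784889 to 10790553, TAIR10), where the table holds HMG and CYP81D11, and not at the locus that the table names CYP81D1. It is called here the entry named CYP81D1, and its values cannot be given to 1 gene.

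Plant cytochrome P450s are haem enzymes, most of them anchored in the membrane of the endoplasmic reticulum, that insert an oxygen atom into a substrate with electrons passed on by a P450 reductase or cytochrome b5. They catalyse single steps in the synthesis of sterols, lignin precursors, cutin, carotenoids and glucosinolates (the sulphur-containing defence compounds of the mustard family), and they make or inactivate several plant hormones. Many are encoded by neighbouring copies that arose by tandem duplication. The metal in their active site is iron, not copper.

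All seedlings were 7 days old. Wild type was Col-0, and the spl7 mutant is affected in SPL7, a transcription factor that controls the response to copper shortage. Both genotypes were raised on plain MS medium and on MS to which 5 µM CuSO4 had been added, at 22 °C in continuous white light after 4 days at 4 °C, and each of these 4 groups is 1 library. The labels name no allele for spl7. SPL7 binding came from 1 ChIP-seq peak list, made with a FLAG antibody in seedlings with a 35S:FLAG-SPL7 transgene, so expression was driven by a constitutive viral promoter, and spl7 seedlings served as the negative control.

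No group has a replicate, so no difference has a replicate check and no test or p-value is given. Values are FPKM, fragments per kilobase of transcript normalised for library size, as deposited. They summed to between 4383940 and 4694640 FPKM per library, and their depth in reads is unknown. SPL7 itself was at 107 and 105 FPKM in the wild-type libraries and at 20.2 and 20.7 FPKM in the spl7 libraries. Photosynthesis genes were high in all 4 libraries, and of the flower and pollen markers AG and AP3 were listed at 0 in all, while PI was at 6.77 to 11.6 FPKM and DMC1 at 48.5 to 61.4 FPKM. The entry MS2 of that list, at 665 to 804 FPKM, is a methionine synthase in the RefSeq table and not a pollen gene. All 9 root markers and all 10 seed storage and oil body markers looked up had values. In whole seedlings a lower level can be fewer cells of a type or less RNA in each, and these cannot be told apart. Reads were kept only where they mapped to 1 place, so the levels of near-identical copies, common in this superfamily, are uncertain.

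Most P450 genes were either moderately expressed or not detected, with little variation between libraries. All 4 libraries listed 59 members (27.6%) at 0, against 24.7% of all gene entries, and 140 members were above 0 in all 4. A level of 5 FPKM in any library was reached by 129 members, 20 FPKM by 94 and 100 FPKM by 46. Together the members made up 0.304% of all FPKM in wild type grown on MS and 0.333% with copper added, and 0.311% and 0.350% in the corresponding spl7 libraries. The share was higher with copper in both genotypes, and the 10 highest members held 38.9% to 41.6% of it. The entry named CYP81D1, at 826 and 1423 FPKM in the wild-type libraries, carried most of the rise of the member sum there, from 13661 to 14665 FPKM. Without that entry, a choice made after seeing the data, the shares were 0.285% and 0.301% in wild type and 0.291% and 0.323% in spl7.

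The CYP71, CYP705 and CYP81 families are the largest and hold 87 members. CYP71 has 48 members, of which 30 reached 5 FPKM and 12 were listed at 0 throughout, and its highest gene was CYP71A22 at a mean of 314 FPKM. CYP705, known for root triterpene enzymes, has 24 members, of which 16 reached 5 FPKM, and its highest was CYP705A19 at a mean of 155 FPKM. The CYP96 and CYP76 families were the quietest of the larger ones, with 6 of 12 and 5 of 8 members listed at 0. All 8 CYP86 members, fatty acid hydroxylases of cutin and suberin among them, and all 4 CYP707A members were above 0 in at least 1 library. In 5 families of 1 or 2 members (CYP716, CYP93, CYP703, CYP715 and CYP724) every member was listed at 0.

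**Figure D1:**
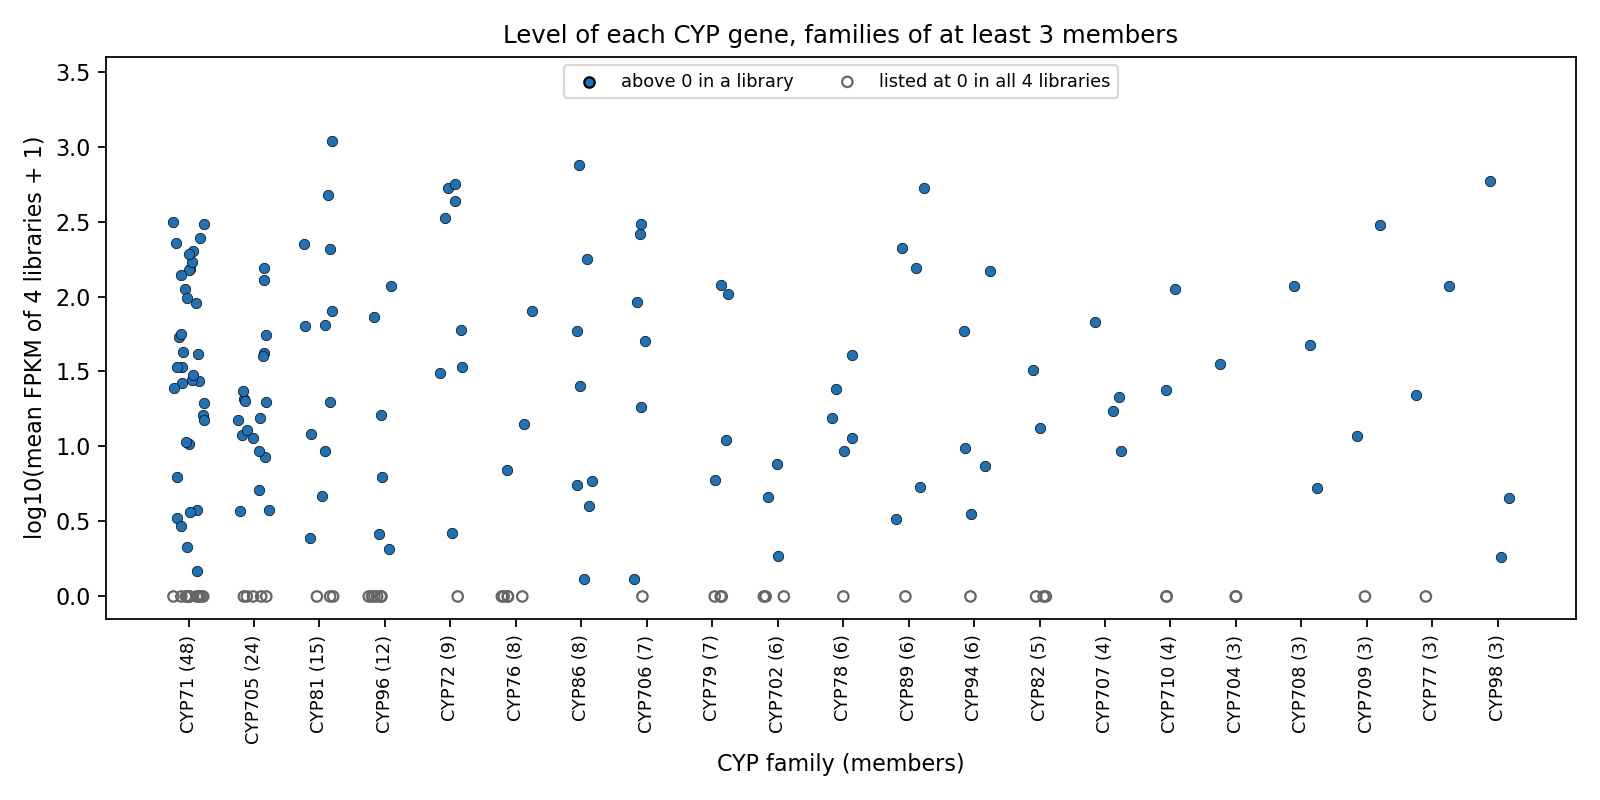
Level of each P450 gene, as log10 of the mean FPKM over 4 libraries plus 1, in the 21 families with at least 3 members; the number of members stands after each family name and open circles mark genes listed at 0 in all libraries. Points within a family are spread sideways for legibility only. Levels run from 0 to over 100 FPKM within most of the larger families.

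The 10 members with the highest means were the entry named CYP81D1, CYP86A2, CYP98A3, CYP72A15, CYP89A2, CYP72A13, CYP81F4, CYP72A11, CYP97A3 and CYP51G1, with means from 1084 down to 422 FPKM. CYP86A2, a fatty acid omega-hydroxylase of cutin synthesis, was at 777, 703, 819 and 707 FPKM in the order wild type MS, wild type MS plus copper, spl7 MS, spl7 MS plus copper, the order used for all sets of 4 values here. CYP98A3, the 3'-hydroxylase of coumaroylshikimate in lignin synthesis, was at 609, 546, 606 and 599 FPKM. CYP51G1, the sterol 14-demethylase and the most widely conserved P450 of eukaryotes, was at 419, 411, 443 and 415 FPKM. None of these 3 genes differed by more than 1.5-fold between any libraries. CYP86A2 shares its interval with ANTR2 in the files, and CYP98A3 with CYSA, so part of their levels may be those genes'. The carotenoid ring hydroxylase CYP97A3 (457, 409, 462 and 371 FPKM) likewise shares its interval with AFH14, and CYP81F4 with AT4G37409. Over all members that reached 5 FPKM, 102 of 129 (79.1%) stayed within 1.5-fold over the 4 libraries, against 84.8% of all entries.

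Members listed at 0 include several genes known from flowers. CYP703A2 and CYP704B1, fatty acid hydroxylases needed for the outer pollen wall, were listed at 0 in all 4 libraries. Also at 0 throughout were CYP82G1, which makes volatile homoterpenes, CYP96A15, the alkane hydroxylase of stem wax, and CYP79A2, which starts glucosinolates from phenylalanine. The lowest value above 0 among members with an interval of their own was 1.19 FPKM.

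Some neighbouring P450 genes differed widely in level. Joined at gaps of at most 10 kb, 133 members (62.1%) formed 41 groups, called arrays here, 33 of which hold 1 family only. Likeness of sequence was not checked, so the genes of an array need not be tandem copies. Inside arrays 24.1% of members were listed at 0 in all libraries, and outside them 33.3%. In 8 arrays the genes included both 1 listed at 0 throughout and 1 with a mean of at least 100 FPKM, not always next to each other. How often this holds for neighbouring genes in general was not computed. The largest array, 9 CYP71B genes over 34.3 kb of chromosome 3, held 3 genes at 0, and its highest was CYP71B20 at 82.2, 81.1, 101 and 91.3 FPKM. In the CYP72A array, 8 genes over 27.0 kb of chromosome 3, CYP72A15 was at 532, 622, 477 and 618 FPKM and CYP72A10 was listed at 0 throughout. CYP82C4 was the only member of its array on chromosome 4 above 0, since CYP82C3 and CYP82C2 were listed at 0 in all libraries.

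**Figure D2:**
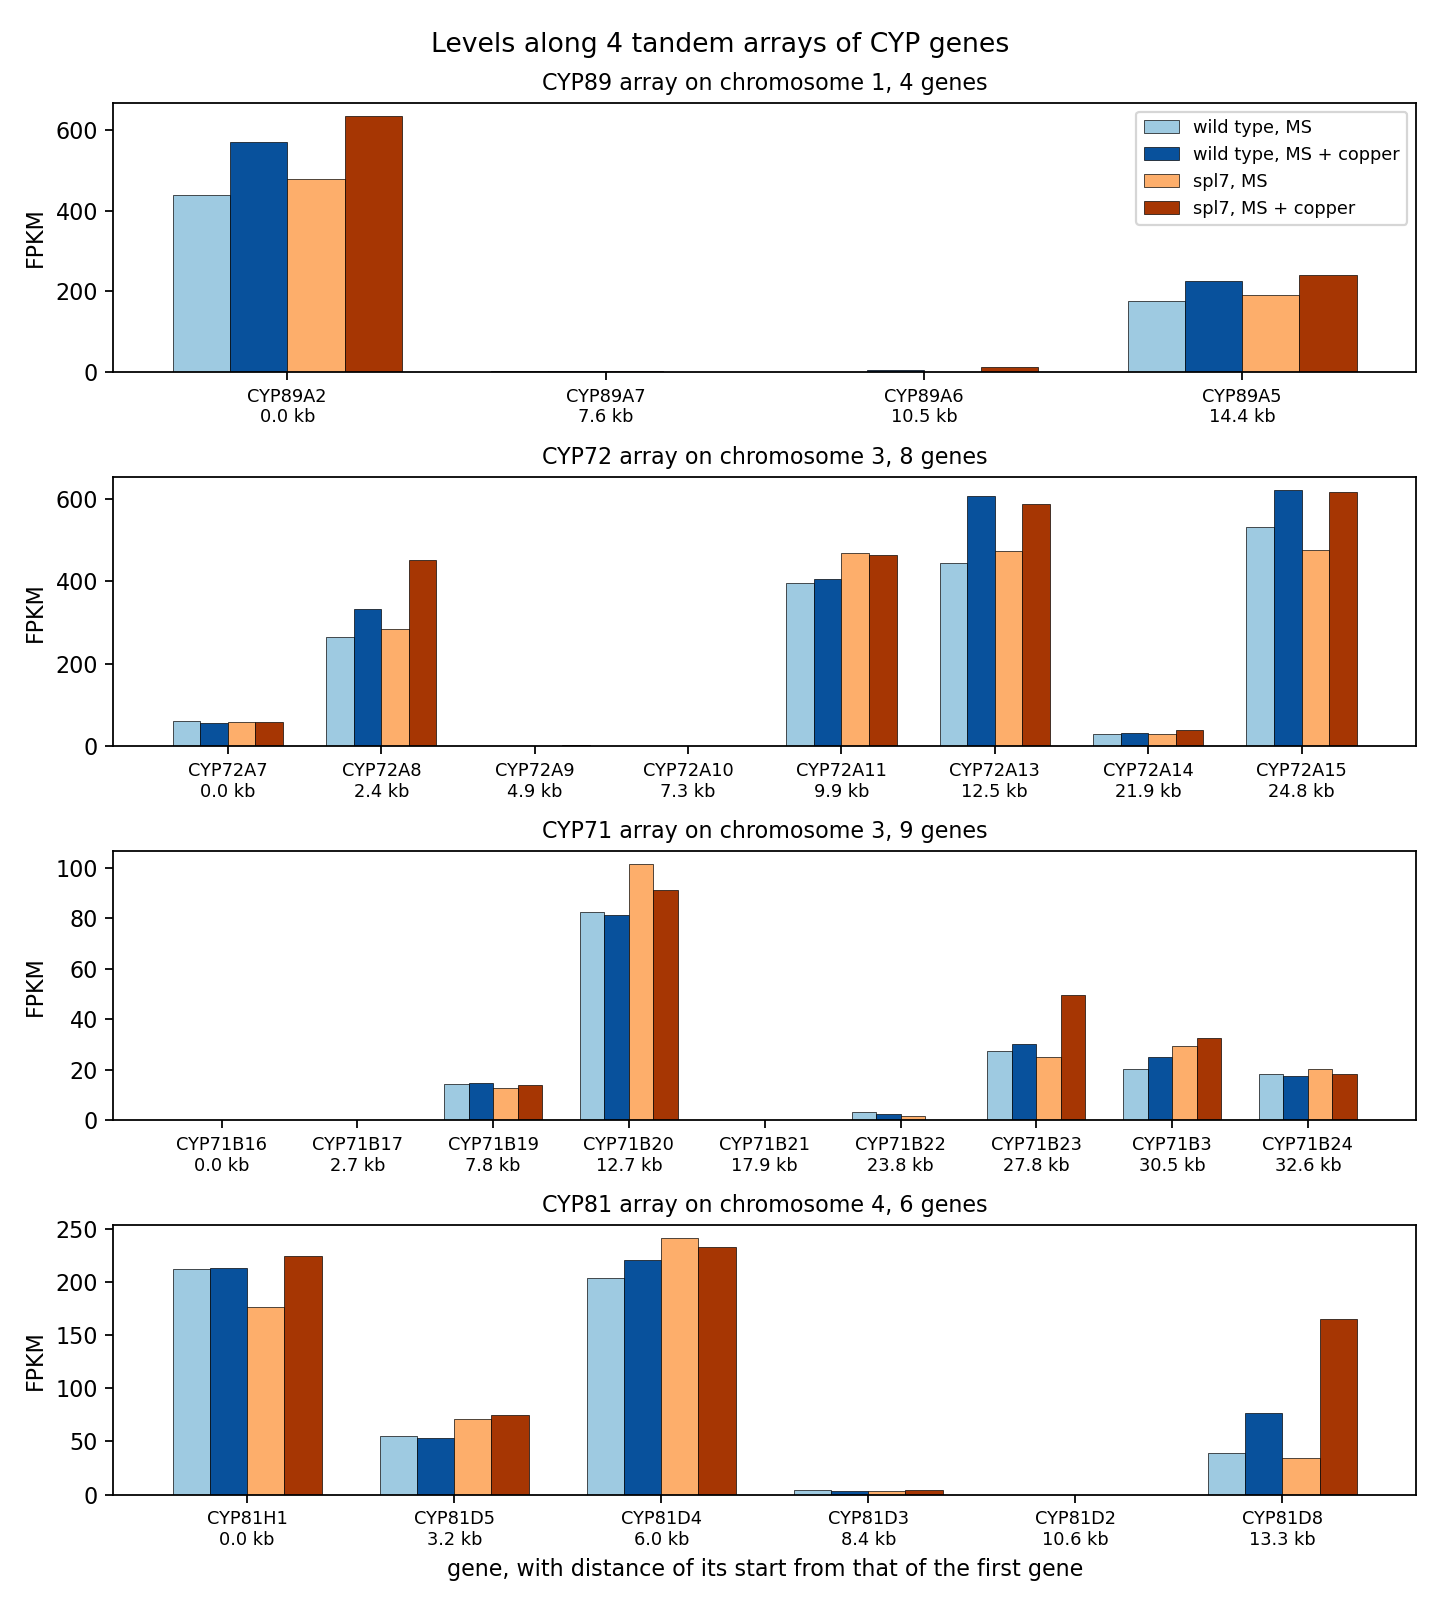
FPKM of each gene in 4 arrays (bars, 1 library each), in the order of the genes along the chromosome, with the distance of each gene's midpoint from that of the first gene in kb. The axis label names starts, but the distances are between midpoints. Genes listed at 0 or under 5 FPKM lie between genes of over 100 FPKM in the CYP89 and CYP72 arrays, and CYP81D8 was more than 2-fold higher in spl7 with copper than in the next library.

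Changes between libraries were described as log2 of the ratio of FPKM + 1, a scale that understates the change of low genes. A difference was counted from a ratio of 2-fold on, provided that 1 of the libraries compared reached 5 FPKM. By that count 12 members (9.30% of the 129 that reached 5 FPKM) differed in at least 1 of 4 comparisons, against 4.38% of all entries. They belong to 10 families. Low levels were common among them: 10 had a mean under 25 FPKM, out of 50 such members (20.0%, against 13.1% of all entries at that level). At 25 to 100 FPKM 2 of 37 members were counted (5.41%, against 2.13% of all entries). None of the 42 members at 100 FPKM or more was counted, and few of all entries at that level were (0.821%). Of the 12, 6 were counted in 1 comparison, 4 in 2 and 2 in 3. The members, CYP82C4 and CYP79F1 among them, were chosen with earlier results of these data known. Shares above those of all entries, here and below, are thus a description only.

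**Figure D3:**
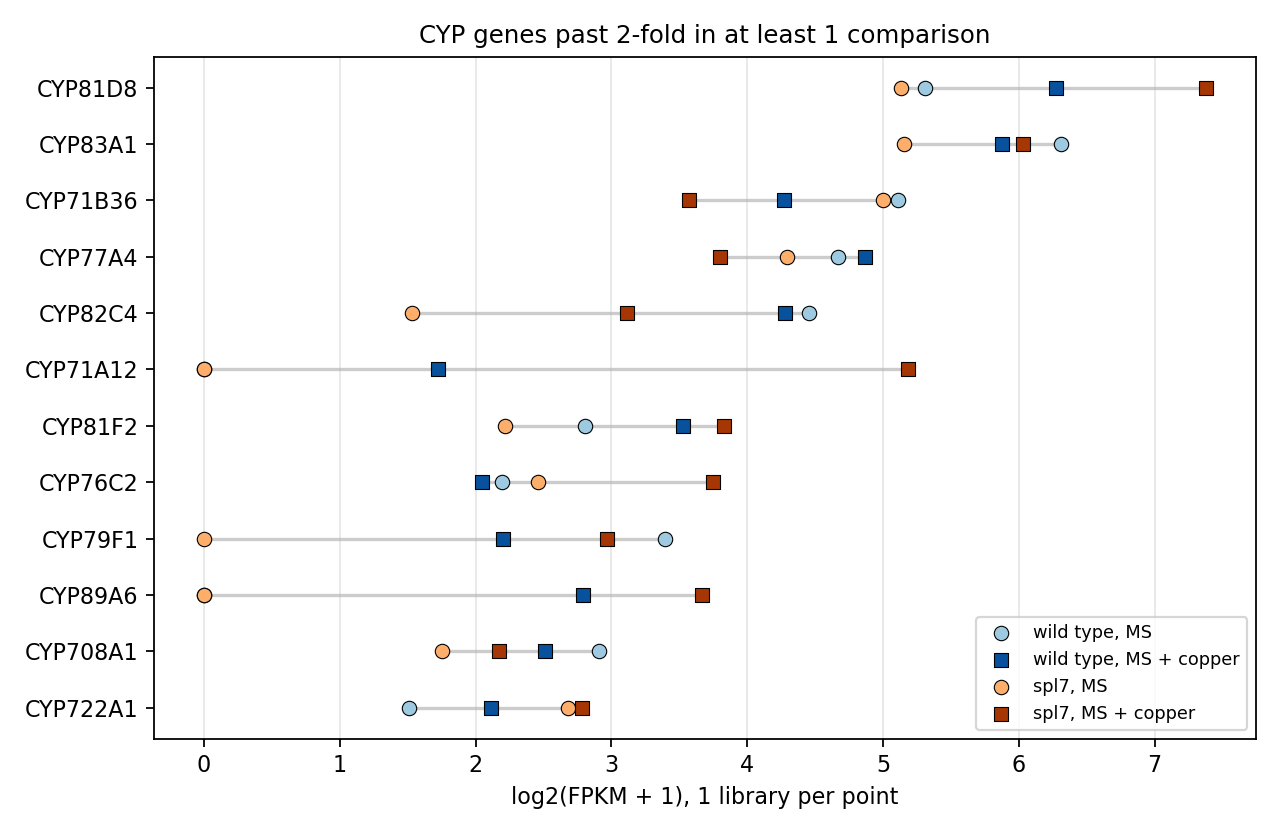
log2(FPKM + 1) of the 12 P450 genes that differed by at least 2-fold in any comparison, with 1 point per library (circles, MS; squares, MS with copper; blue, wild type; orange, spl7). The points of both MS libraries coincide at 0 for CYP71A12 and CYP89A6. CYP82C4 is lower in both spl7 libraries than in both wild-type libraries, whereas CYP71A12, CYP81D8 and CYP76C2 are highest in spl7 with copper.

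On MS without added copper, the genes lower in spl7 included an enzyme of iron-mobilising coumarins and a pair of enzymes of methionine-derived glucosinolates. Lower in spl7 were 4 of 123 members tested (3.25%, against 1.05% of all entries), namely CYP82C4, CYP79F1, CYP83A1 and CYP708A1. Higher was 1 member (0.813%, against 0.541%), CYP722A1. The median log2 ratio over members of at least 1 FPKM was 0.05, with 84 of 150 above 0, and that over all entries was -0.00.

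CYP82C4 (AT4G31940, chromosome 4, 15451988 to 15454160) hydroxylates the coumarin fraxetin to sideretin, a compound that iron-starved roots secrete. Its level was 20.9 FPKM in wild type without and 18.4 FPKM with added copper, and 1.90 and 7.65 FPKM in the corresponding spl7 libraries. Both spl7 libraries were below both wild-type libraries, and the lowest value was on MS. For spl7 over wild type the log2 ratio was -2.92 (MS) and -1.17 (copper), and the log2 ratio of copper to MS was -0.17 for wild type and 1.58 for spl7. The other CYP82 member above 0, CYP82F1, had a log2 ratio of -0.23 on MS and of -0.20 with copper.

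Of 9 other genes of iron deficiency and coumarin secretion looked up, 6 reached 5 FPKM in any library, and 2 were counted as lower in spl7 on MS (1.05% of all entries were) and 0 with copper (0.814%). This list, like the pathway lists below, was chosen with earlier results of these data known, so such counts are a description only. IRT1, the root iron transporter, was at 61.7, 63.3, 20.2 and 34.7 FPKM. FRO2, the root ferric reductase, was at 30.0, 25.6, 11.9 and 15.8 FPKM. Both were lowest in spl7 on MS, as CYP82C4 was. F6'H1, which makes the coumarin scaffold, was at 15.7, 13.2, 11.3 and 15.8 FPKM and passed no threshold. The summed level of the 9 root markers, none of them at 0, was 424 and 406 FPKM in the wild-type libraries and 351 and 356 FPKM in the spl7 libraries, and the part of this difference in the results for CYP82C4 was not tested.

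CYP79F1 and CYP83A1, which act in turn on the way from methionine to glucosinolates, were also lowest in spl7 on MS. CYP79F1 (AT1G16410, chromosome 1, 5608807 to 5611426) turns chain-elongated methionine into aldoximes. In wild type it was at 9.53 FPKM without and 3.59 FPKM with added copper. The spl7 library from MS listed it at 0, and that with copper had 6.82 FPKM. With copper it was thus lower in wild type (log2 ratio -1.20) and higher in spl7 (2.97), and spl7 against wild type gave -3.40 on MS and 0.77 with copper. Its neighbour and close copy CYP79F2, which acts on the longer chains, was at 10.4, 11.9, 8.65 and 9.02 FPKM. It stayed within 1.5-fold, so the pair did not move together, and with uniquely mapped reads alone the split of reads between these copies is uncertain.

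CYP83A1, which oxidises the aldoximes made by CYP79F1 and CYP79F2, was at 78.3, 57.8, 34.7 and 64.3 FPKM. It was lowest in spl7 on MS, with a log2 ratio to wild type of -1.15, and the 2 genotypes were close with copper (0.15). Of 18 partner genes of aliphatic glucosinolates that were matched, 17 reached 5 FPKM in any library, and 4 were lower in spl7 on MS (1.05% of all entries were) and 0 higher (0.541%). This list too was chosen with earlier results of these data known. MAM1, the first enzyme of methionine chain elongation, was at 43.6, 29.2, 15.5 and 28.2 FPKM, and the aminotransferase BCAT4 was at 19.4, 14.1, 4.78 and 10.4 FPKM. The regulator MYB29 was at 13.1, 11.9, 5.87 and 9.63 FPKM. These 3 genes were highest in wild type on MS and lowest in spl7 on MS. The side-chain oxygenase FMO GS-OX3 was at 10.9, 4.80, 3.49 and 4.73 FPKM, likewise highest in wild type on MS and lowest in spl7 on MS. FMO GS-OX1, GSTU20, BCAT3 and SUR1 had this order too but passed no threshold. The median log2 ratio of the partner list on MS was -0.32, against -0.00 for all entries, while its main regulator MYB28 was at 113, 108, 108 and 100 FPKM and SOT18, the last step of the core pathway, at 106, 103, 114 and 117 FPKM. With copper, 2 partners were lower in spl7. AOP3 was at 5.38 FPKM in wild type and listed at 0 in both spl7 libraries, and IMD1 was at 37.8, 119.7, 25.6 and 38.3 FPKM in an interval it shares with another gene.

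**Figure D4:**
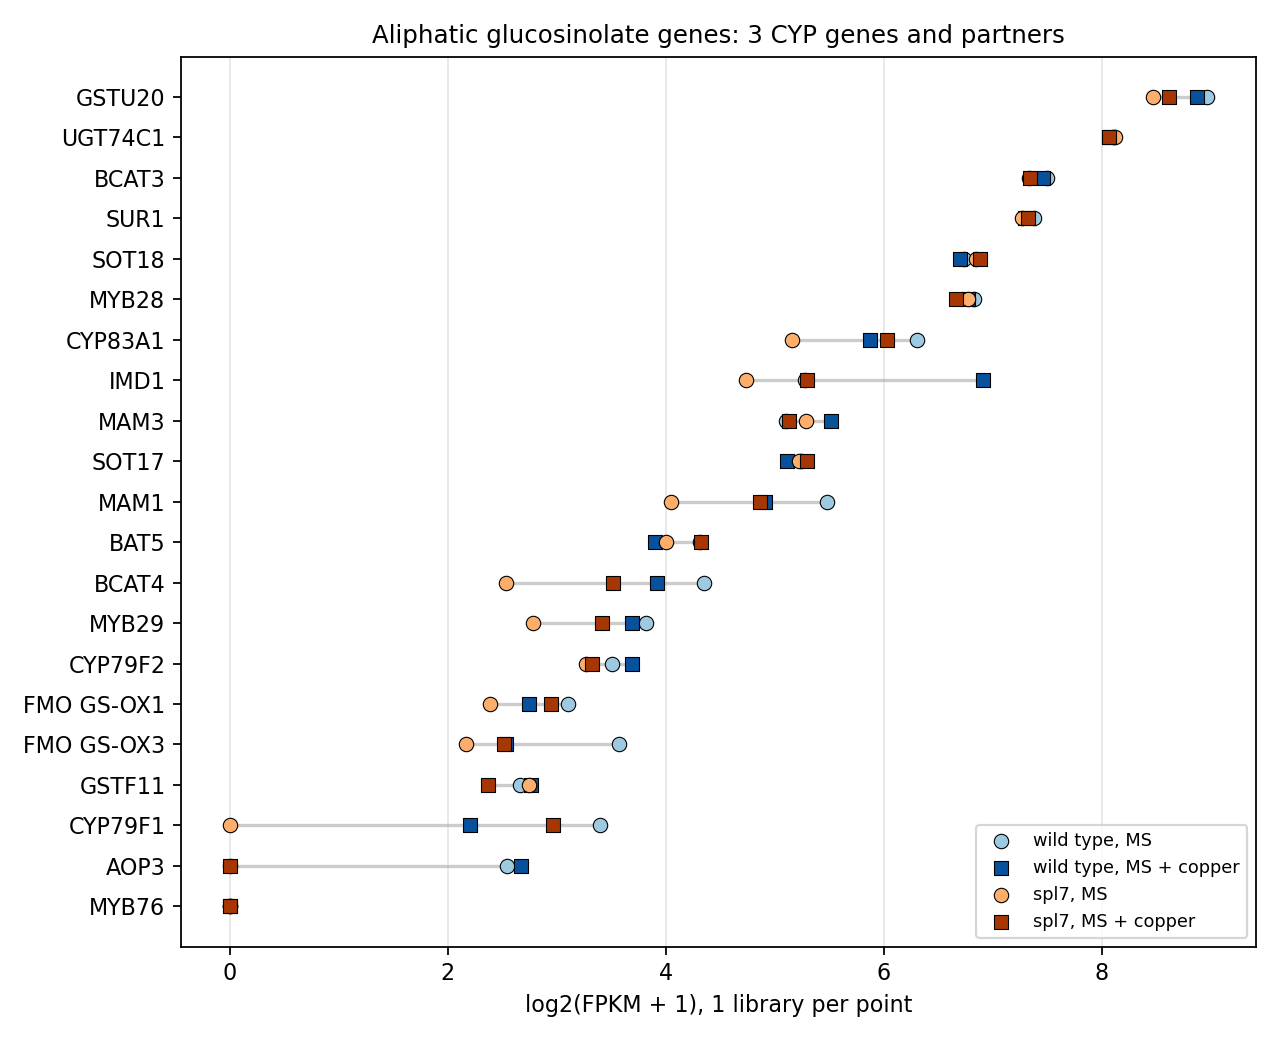
log2(FPKM + 1) of 3 P450 genes and 18 partner genes of aliphatic glucosinolate synthesis, with 1 point per library (circles, MS; squares, MS with copper; blue, wild type; orange, spl7). MYB76 was listed at 0 in all 4 libraries and AOP3 in both spl7 libraries, so that points coincide. CYP79F1, CYP83A1, MAM1, BCAT4, MYB29 and FMO GS-OX3 share the order with wild type on MS highest and spl7 on MS lowest. FMO GS-OX1, GSTU20, BCAT3 and SUR1 share it too, by smaller differences.

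CYP708A1, for which no role is given here, was at 6.49, 4.71, 2.37 and 3.50 FPKM, with a log2 ratio on MS of -1.15. CYP722A1, placed here on a list of cytokinin and strigolactone P450s with no role stated, was at 1.84, 3.33, 5.42 and 5.87 FPKM, with a log2 ratio on MS of 1.17. Both lie close to the minimum level. CYP708A2, of the same subfamily as CYP708A1 and the thalianol hydroxylase of a root triterpene gene cluster, was at 102, 100.5, 150.2 and 111 FPKM and thus highest in the library where CYP708A1 was lowest.

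With added copper, a camalexin-related gene, a stress-responsive gene and a CYP76C gene were higher in spl7 than in wild type. Higher were 3 of 127 members tested (2.36%, against 0.989% of all entries), CYP71A12, CYP81D8 and CYP76C2. Lower were 2 (1.57%, against 0.814%), CYP82C4 and CYP77A4. The median log2 ratio of members was 0.04 and that of all entries -0.03. CYP77A4, a fatty acid epoxidase, was at 24.5, 28.2, 18.6 and 12.9 FPKM, so that its lowest value was in spl7 with copper.

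More members differed with copper in spl7 than in wild type, as did more of all entries. In wild type 1 of 126 members was higher with copper (0.794%, against 0.950% of all entries), CYP89A6, and 1 was lower (0.794%, against 0.379%), CYP79F1. In spl7 7 of 127 were higher (5.51%, against 1.99%), namely CYP71A12, CYP76C2, CYP79F1, CYP81D8, CYP81F2, CYP82C4 and CYP89A6, and 1 was lower (0.787%, against 0.524%), CYP71B36. The median log2 ratio of members was 0.05 (wild type) and 0.02 (spl7), and that of all entries -0.00 and -0.03. The comparisons share libraries: spl7 on MS is the base of the copper ratio in spl7 and the numerator of the genotype ratio on MS, so a low value there lowers the genotype ratio and raises the copper ratio alike.

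CYP71A12 (AT2G30750, chromosome 2) turns indole-3-acetaldoxime into indole-3-acetonitrile in pathogen-induced pathways. It was listed at 0 in both MS libraries and was at 2.30 FPKM in wild type with copper and 35.4 FPKM in spl7 with copper. Its array neighbour and close copy CYP71A13, which serves the phytoalexin camalexin, was at 15.5, 15.9, 16.6 and 12.7 FPKM. The copies thus did not move together, and the split of reads between them is uncertain. PAD3, the P450 of the last step to camalexin, is listed under its own symbol rather than a CYP name, and it was at 2.64, 3.64, 4.90 and 53.8 FPKM. The glutathione transferases GSTF6 (76.4, 79.0, 59.5 and 188 FPKM) and GSTU4 (15.5, 19.2, 26.4 and 103 FPKM) were highest in the same library. They and PAD3 were the 3 of 18 matched partner genes of indole glucosinolates and camalexin counted as higher with copper in spl7, and 17 of the 18 reached 5 FPKM (1.99% of all entries were counted so).

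CYP81F2, which hydroxylates indole glucosinolates at the 4 position and is needed for defence against microbes, was at 5.98, 10.5, 3.66 and 13.2 FPKM. The copper log2 ratio was 0.72 (wild type) and 1.61 (spl7). The enzymes upstream and the related CYP81F4 showed no such order. CYP79B2, which makes indole-3-acetaldoxime from tryptophan, was at 109, 101, 108 and 92.4 FPKM, and CYP79B3, with the same reaction, was at 136, 111, 128 and 102 FPKM. CYP83B1, which takes indole-3-acetaldoxime towards glucosinolates, was at 294, 267, 311 and 308 FPKM, and CYP81F4, which modifies the 1 position, was at 476, 396, 526 and 511 FPKM. None of the 11 members of the indole list was counted as different between genotypes on MS (of all entries 0.541% were higher and 1.05% lower). CYP71A12 and CYP82C2 were below the minimum level there and could not be counted. With so small a share of all entries counted, that is no result about this list.

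CYP81D8, a P450 known to respond to xenobiotics and oxidative stress, was at 38.6, 76.5, 34.1 and 165 FPKM. It was higher with copper in both genotypes, by log2 ratios of 0.97 (wild type) and 2.24 (spl7), and the former lay just under the threshold. CYP76C2, a member of the monoterpenol oxidase subfamily CYP76C, was at 3.57, 3.14, 4.50 and 12.5 FPKM, and only spl7 with copper stood apart. CYP76C1, the linalool oxidase beside it, was at 70.9, 77.8, 81.0 and 86.1 FPKM and within 1.5-fold. Of the 9 matched members of a list for stress and xenobiotic response, CYP81D8 and CYP76C2 were the 2 counted as higher with copper in spl7, with a list median of 0.37 on the log2 scale (all entries: 1.99% counted, median -0.03).

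All CYP89A members that reached 5 FPKM were above their MS value with copper in both genotypes. CYP89A2 was at 438, 571, 480 and 636 FPKM, CYP89A5 at 175, 226, 190 and 242 FPKM, and CYP89A9, which oxidises chlorophyll breakdown products, at 129, 140, 138 and 212 FPKM. These 3 passed no threshold. CYP89A6, in the array with CYP89A2 and CYP89A5, was listed at 0 in both MS libraries and was at 5.91 and 11.7 FPKM with copper. Its values are small beside those of its neighbours, and reads shared among the copies were dropped. Among CYP72 genes, CYP72C1 included, 6 of 7 that reached 5 FPKM were above 0 in log2 ratio with copper in wild type and 5 of 7 in spl7. CYP72A8 was at 266, 334, 284 and 451 FPKM, and its log2 ratio for copper was 0.32 in wild type and 0.67 in spl7.

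CYP71B36 was the 1 member lower with copper in spl7. It was at 33.5, 18.3, 31.0 and 10.9 FPKM, so that both copper libraries lay below both MS libraries, with log2 ratios of -0.84 (wild type) and -1.43 (spl7). The 5 tested CYP86 members were below 0 in log2 ratio with copper in both genotypes, by a median of -0.15 in wild type and -0.09 in spl7. CYP86C2 had the largest size, -0.76 in spl7, from 6.26 to 3.29 FPKM, and none was counted.

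**Figure D5:**
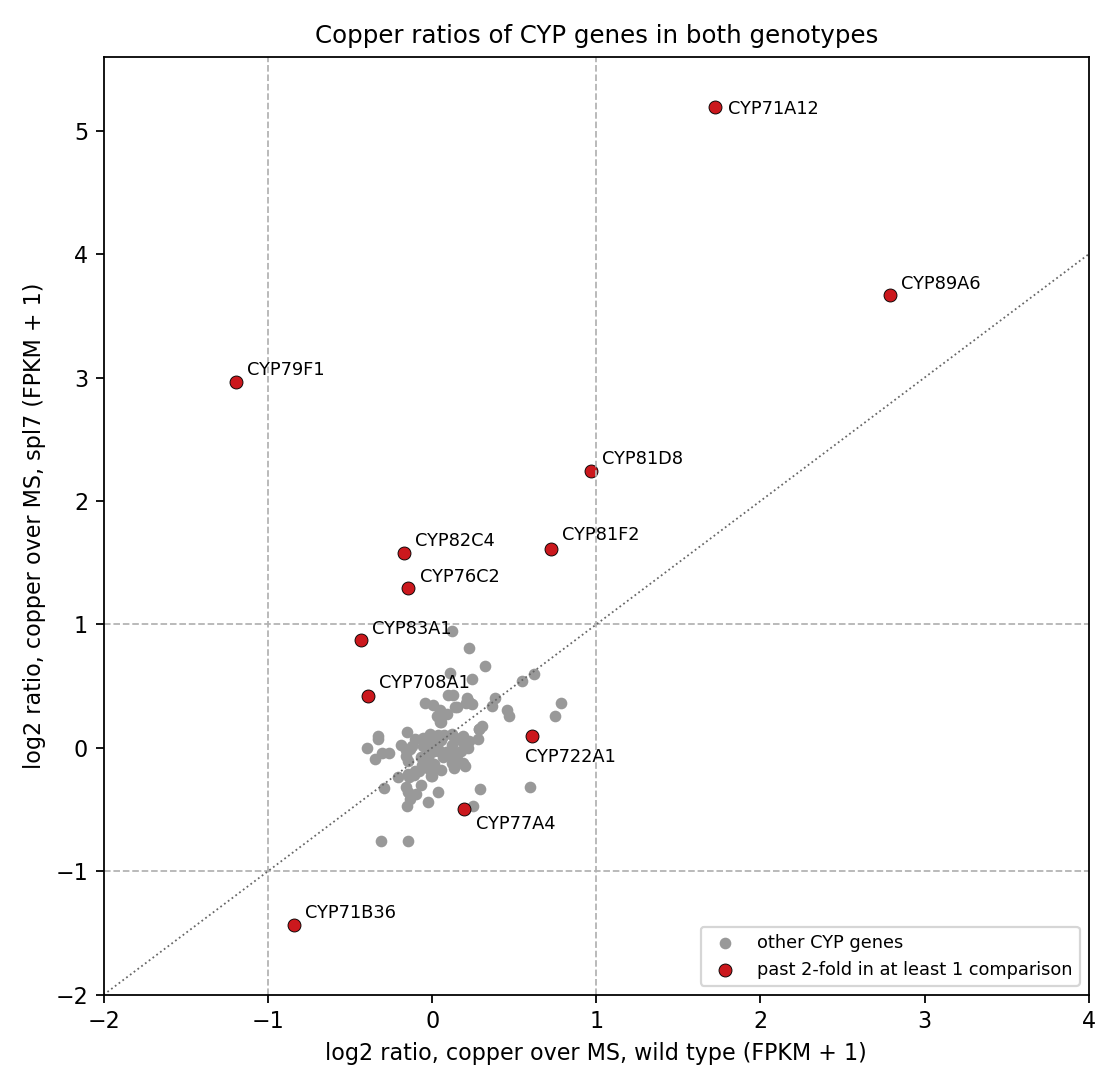
log2 ratio of FPKM + 1 with copper over MS in wild type (horizontal) and in spl7 (vertical) for the 129 P450 genes that reached 5 FPKM in any library. Dashed lines mark 2-fold and the dotted line equal ratios; red points passed 2-fold in at least 1 comparison. CYP79F1 lies at -1.20 and 2.97, on opposite sides of 0, and CYP71A12 at 1.72 and 5.19.

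The difference between the copper ratios was then taken directly, as wild type minus spl7. It had a log2 size of at least 1 in 6 of 129 members, all with the larger ratio in spl7 (4.65%, against 1.57% of all entries), and in 0 members with the larger ratio in wild type, against 0.958% of all entries. The differences were -4.16 for CYP79F1, -3.46 for CYP71A12, -1.75 for CYP82C4, -1.43 for CYP76C2, -1.30 for CYP83A1 and -1.28 for CYP81D8. Those of CYP79F1 and CYP71A12 involve libraries that list the gene at 0, so their size depends on the pseudocount and is no bound on the fold. They arose in different ways. CYP79F1, CYP82C4 and CYP83A1 were low in spl7 on MS, whereas CYP71A12, CYP76C2 and CYP81D8 were high in spl7 with copper. The difference has no replicate and was not tested.

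The genes just inside and just outside the 2-fold threshold show how it divides the members. On MS the counted genes nearest to it were CYP83A1, CYP708A1 and CYP722A1, and the nearest outside were CYP71B4 (log2 ratio 0.69), CYP81F2 (-0.58) and CYP87A2 (-0.56). With copper CYP77A4 (-1.07), CYP81D8 and CYP82C4 were nearest inside, and CYP89A6 (0.88), CYP79F1 and CYP71B36 (-0.70) outside. For copper in wild type, CYP81D8, CYP71B36 and the entry named CYP81D1 (0.78) were nearest outside. For copper in spl7, CYP76C2 (1.29), CYP71B36 and CYP82C4 were nearest inside, and CYP71B23 (0.95), CYP83A1 (0.87) and CYP96A4 (0.81) outside.

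Hormone-related members other than CYP722A1 passed no threshold in any comparison (4.38% of all entries that reached 5 FPKM did in at least 1). With so small a share of all entries counted, that is no result about these genes. The 4 CYP707A genes encode the abscisic acid 8'-hydroxylases, which break the hormone down. CYP707A2, the seed form, was at 54.5, 80.2, 52.6 and 77.0 FPKM, so that both copper libraries lay above both MS libraries, and CYP707A1 was at 19.6, 20.1, 18.7 and 22.6 FPKM. The summed level of the 10 seed markers was 323 and 208 FPKM on MS in wild type and spl7, and 686 and 565 FPKM with copper. In wild type each marker was higher with copper. In spl7 CRA1, CRU3, OLEO1, OLEO2 and EM1 were higher, whereas SESA1, SESA2 and SESA3 were not. CRU2 and SESA4 were listed at 0 in spl7 with and without copper. Of these markers CRU2, SESA2 and SESA4 were at 0 in at least 1 library, and the part of the seed markers in the CYP707A2 difference was not tested. CYP711A1, the MAX1 enzyme of strigolactone synthesis, was at 115, 113, 119 and 109 FPKM in an interval it shares with IQD6. CYP88A3, an ent-kaurenoic acid oxidase of gibberellin synthesis, was at 30.1, 29.7, 28.5 and 27.4 FPKM. CYP94B1, which hydroxylates the jasmonate conjugate jasmonoyl-isoleucine, was at 51.4, 48.9, 72.7 and 58.9 FPKM, highest in spl7 on MS. CYP90D1 of brassinosteroid synthesis was at 16.5, 19.7, 12.5 and 18.9 FPKM and lowest there.

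None of the 3 sterol and 5 root triterpene list members that reached 5 FPKM was counted in any comparison. Of 13 members of the fatty acid hydroxylase, suberin and wax list, 6 reached 5 FPKM and CYP77A4 was the 1 counted. Of all entries that reached 5 FPKM, 4.38% were counted in at least 1 comparison, so these counts are no result about the lists. The sterol C-22 desaturase CYP710A2 was at 93.9, 92.3, 125 and 130.0 FPKM, above wild type in both spl7 libraries by log2 ratios of 0.41 and 0.49. CYP86A1 and CYP86B1, both suberin enzymes, were at 67.0, 52.3, 57.3 and 53.9 FPKM and at 28.0, 26.7, 21.6 and 20.4 FPKM. In the root triterpene clusters, the thalianol gene CYP705A5 was at 131, 129.8, 136 and 116 FPKM, and the marneral genes CYP71A16 and CYP705A12 were at 34.7, 31.5, 37.6 and 28.0 FPKM and at 34.9, 41.4, 38.0 and 48.8 FPKM. CYP78A5, which promotes organ growth, was at 38.0, 43.4, 40.5 and 37.0 FPKM.

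The members closest in pattern to CYP82C4 were found by the root mean square distance between log2(FPKM + 1) values, each centred on its own mean over the 4 libraries, among 128 other members. CYP79F1 was the nearest (0.71), followed by CYP708A1 (0.77) and CYP83A1 (0.82). For CYP79F1 they were CYP82C4 (0.71), CYP83A1 (0.89) and CYP708A1 (0.99). These 4 genes are the ones counted as lower in spl7 on MS, and with 4 libraries the measure rests mostly on that library.

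Few P450 genes had an SPL7 peak nearby. Of 214 members, 5 (2.34%) had a peak within 1 kb of the gene, against 6.70% of all entries. None of the 12 members counted in a comparison was among these 5, which are too few for that to be read as a result. The share of all counted entries with a peak was not computed. The 1535 peaks had the authors' scores from 164.95 to 3126.1, with a median of 223.61. The highest-scoring peak at a member lay 286 bp from CYP86A8, a fatty acid omega-hydroxylase of cutin synthesis, at chromosome 2, 18910915 to 18911974, with a score of 1518.01 and rank 85 of 1535. PIP1B lies within 1 kb of the same peak. CYP86A8 was at 184, 183, 170 and 168 FPKM, within 1.5-fold. CYP709B3, with a peak of score 228.8 at 296 bp, was at 281, 263, 368 and 283 FPKM. The peaks inside the CYP79B3 interval (score 183.02) and inside the CYP81F4 interval (180.75 and 289.96) were of low to middling score, and the remaining peak lay in the interval of the entry named CYP81D1 (348.28), which was at 826, 1423, 913 and 1173 FPKM.

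Some P450 genes are listed under other symbols. Of 14 entries that the RefSeq table gives a CYP synonym, 1 was counted in any comparison, PAD3 (4.38% of all entries that reached 5 FPKM were). C4H, the cinnamate hydroxylase at the entry to phenylpropanoids, was at 1578, 1463, 1528 and 1559 FPKM, above every member. Among the electron donors, none of 8 genes for P450 reductases, cytochrome b5 proteins and cytochrome b5 reductase was counted. With so small a share of all entries counted (4.38%), that is no result about these genes. The reductase genes ATR1 and ATR2 were at 350, 375, 354 and 364 FPKM and at 390, 371, 319 and 343 FPKM.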

How the data were processed

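Per the submitters' processing notes, the authors used CASAVA 1.8.2, TopHat and the TAIR10 genome, kept uniquely mapped reads and computed FPKM values with Cufflinks. Bowtie served for the ChIP-seq reads, and the deposited peaks bear MACS names and a score. For other versions, the meaning of the score and the part of the spl7 control in peak calling, the sources used here give nothing. Among low genes the commonest log2 ratio between libraries held 3.96% to 6.46% of genes, so steps of whole reads were not recovered and the depth is unknown. Strandedness is not stated, so overlapping genes cannot be separated, and 15 members (7.01%) share an interval with another entry.

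Each group is 1 library, so no test was made. Ratios used a pseudocount of 1 FPKM with Python 3.11.15, pandas 2.3.3 and numpy 2.4.6, and the steps were tested on simulated data. Medians cover genes of at least 1 FPKM in either library. A peak counted for a gene if it overlapped the gene or its 1 kb flanks by 1 bp or more. Named genes were CYP82C4 and CYP79F1, counted members, the 10 highest, members with a peak, those nearest the threshold and listed members that reached 20 FPKM; the few others were chosen after their values were seen. The members and gene lists were chosen with earlier results of these data known. No protein or promoter sequence was used here. Alternatives were pseudocounts of 0.1 and 5 FPKM, no minimum or 20 FPKM, 1.5-fold, rescaled libraries, entries sharing an interval or listed at 0 left out, and other peak distances and scores.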

Additional observations from a re-analysis of the deposited data

Results flagged for a closer look

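The copper ratio of CYP79F1 had opposite directions in the genotypes. The gene was lower with copper in wild type and higher with copper in spl7, and the ratios differed by -4.16 on the log2 scale (wild type minus spl7). The difference rests on 1 library per group, of which spl7 on MS lists the gene at 0, and it was not tested.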

How the results depend on the processing

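No paired analysis was possible because each group holds 1 library, and no library could be left out. Of 101 alternatives to the counts and medians, 76 kept a median within 0.1 or a count within 1.5 times. The median for copper in spl7 changed sign with a minimum of 20 FPKM, from 0.02 to -0.02. Settings not named below kept the counts within 1.5 times. For spl7 against wild type on MS, higher members numbered 0 with a pseudocount of 5 FPKM, 4 with no minimum, 0 at 20 FPKM and 2 at 1.5-fold, and lower members numbered 2 at 20 FPKM. With copper, higher members numbered 7 with no minimum and 8 at 1.5-fold, and lower members 0 with the larger pseudocount, 6 with no minimum, 1 at 20 FPKM and 4 at 1.5-fold. For copper in wild type, higher members numbered 4 with no minimum, 0 at 20 FPKM, 0 without genes listed at 0 and 7 at 1.5-fold, and lower members 0 with the larger pseudocount, 3 with no minimum, 0 at 20 FPKM and 2 at 1.5-fold. For copper in spl7, higher members numbered 2 at 20 FPKM, 4 without genes listed at 0 and 13 at 1.5-fold, and lower members 7 with no minimum and 3 at 1.5-fold. Counts fall with a higher minimum or pseudocount by construction. Over all entries, the shares counted in each direction of the 4 comparisons ran from 0.758% to 2.09% with no minimum, 0.162% to 1.31% at 20 FPKM, 1.16% to 4.48% at 1.5-fold, 0.272% to 1.44% with the larger pseudocount and 0.220% to 1.58% without genes listed at 0. Within 3 kb, 9 members (4.21%, against 10.7% of all entries) had a peak. Of 648 alternative ratios of the 54 named genes, 641 kept their call, which needs both 2-fold and the minimum level. The other 7, all with a pseudocount of 5 FPKM, lost it: CYP708A1 and CYP722A1 on MS, CYP82C4 and CYP77A4 with copper, CYP79F1 for copper in wild type, and CYP82C4 and CYP76C2 for copper in spl7. Rescaling to one upper quartile changed no call among the named genes. Depth is unknown, and most counted members lie at low levels.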
